A study of Mus musculus with 16 samples.

Results

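The fibrillar collagens are the collagens that assemble into the banded fibrils of skin, tendon and bone. The members described here are the 7 genes Col1a1, Col1a2, Col3a1, Col5a1, Col5a2, Col5a3 and Col11a1, named by their platform gene symbol among the 17097 genes of the array that have a probe set with a single symbol. They were listed by name rather than by a measured value, though with earlier results of these data known, and each gene was represented by its probe set of highest mean. The cells were labelled dermal fibroblasts, the matrix-producing cells of skin, of female mice of the strain C57Bl/6, and all carried no stated genetic change or treatment. Each of the 4 groups held 4 arrays: young mice (2 months) profiled directly after isolation, called in vivo in the labels, old mice (18 months) in vivo, young cultured and old cultured cells. Every mouse gave a fresh and a cultured sample of 5000 cells, whose cDNA was amplified over 23 cycles. How long and in what medium the cells were grown is not given in the labels, so the cultured groups stand for unspecified culture conditions.

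Fibrillar procollagens are trimers of long chains that are folded and hydroxylated in the endoplasmic reticulum, secreted, trimmed at both ends and crosslinked into fibrils. Type I, made from the chains of Col1a1 and Col1a2, is the bulk collagen of the dermis, and type III, made from Col3a1, accompanies it in extensible tissues. Type V, with chains of Col5a1, Col5a2 and, in some tissues, Col5a3, is a minor component that starts fibrils and limits their width, and mutations of human COL5A1 and COL5A2 cause the classical form of Ehlers-Danlos syndrome. Type XI, to which Col11a1 contributes, has a like role in cartilage.

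Col1a1, Col1a2 and Col3a1 were lower in cultured cells at both ages. Col5a3 was lower in culture in young cells, and Col11a1 was higher in culture at both ages. Col5a2 and Col1a2 were lower in old than in young cells in vivo. Col5a1 had a change with age of like size that did not pass the test with its main probe set. In culture the values of these 3 genes were nearly equal in old and young cells.

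The values are log2 signals of a probe set, so the tests compared groups and never genes. Where genes are called bright or dim, summed or subtracted on an array, this is a description only. All 7 genes were above the filter, a log2 value of 3.87, on all 16 arrays. No 2 arrays held identical values. In vivo arrays correlated with each other at 0.977 to 0.992, cultured arrays at 0.987 to 0.996, and in vivo with cultured arrays at 0.879 to 0.913. The brightest probe set of an array read between 12.81 and 13.08. Col1a1 lay 0.39 to 0.77 below that maximum and Col3a1 0.51 to 1.12 below it, so there is little room above their values and a change in them may be understated. The Col1a2 probe set was designed from an expressed sequence tag, and whether it lies in the mature transcript was not tested. Of the fibroblast markers Vim (11.5 to 11.7) and Thy1 (10.7 to 11.3) were bright in all 4 groups. Lum went from 11.68 and 11.65 in young and old in vivo cells to 7.23 and 6.83 in culture. Dpt went from 11.70 and 11.65 to 8.89 and 8.75, and Dcn from 12.58 and 12.70 to 11.07 and 10.85. With culture 5 of 8 fibroblast markers were called lower at both ages, Thy1 among them. Pdgfra was dim, with group means of 4.63 to 5.05, so this defining marker gave little signal. Of 10 macrophage and monocyte markers 6 passed the filter. Cd68 (8.09 and 8.10 in young and old in vivo cells) and Csf1r (7.53 and 6.46) were the brightest. Lyz2, Cd14, C1qb and C1qc were dim, with in vivo means of 4.20 to 5.25. The leukocyte gene Ptprc did not pass, nor did Adgre1, Itgam and C1qa. On 1 array, old in vivo replicate 1, the summed level of the keratinocyte markers was 10.3, against 8.48 to 8.88 on the other in vivo arrays. For the main probe sets of the 7 genes, results that turn on this array are given with and without it. No such fit was made for other probe sets, list genes or markers. Their values include this array, as do the differences between 2 genes on the same array. In bulk samples, fewer cells of a type and less RNA per cell cannot be told apart.

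Sequence upstream of a start of the gene was found in RefSeq (build GRCm38.p6) for 5 of the 7 genes, namely Col1a2, Col3a1, Col5a1, Col5a3 and Col11a1. The stretches of 4 of them are printed because their genes moved differently: Col1a2 and Col3a1 were lower in culture at both ages, Col5a1 was lower in young and higher in old cultured cells, and Col11a1 was higher in culture. Each has 185 bases, from 250 to 66 bases before the start, on the plus strand, at chr6:4505368-4505552, chr1:45311288-45311472, chr2:27886175-27886359 and chr3:114030290-114030474. Here the start is the one at which the upstream window was anchored. For Col1a2 and Col3a1 it is also the outermost start of the gene. For Col5a1, Col5a3 and Col11a1 the outermost start lies further upstream, at chr2:27886381, chr9:20815117 and chr3:114030479. The printed stretches end before it. Capitals mark matches on either strand to CCAAT (the box bound by NF-Y) and TATAAA (the letters of a TATA box). They also mark GGGCGG (bound by Sp1) and CAGACA (a Smad element). These matches do not overlap one another here.
Col1a2: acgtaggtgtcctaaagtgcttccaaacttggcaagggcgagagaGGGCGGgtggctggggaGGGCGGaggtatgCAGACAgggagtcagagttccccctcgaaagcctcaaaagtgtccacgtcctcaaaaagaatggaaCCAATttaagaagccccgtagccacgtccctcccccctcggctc
Col3a1: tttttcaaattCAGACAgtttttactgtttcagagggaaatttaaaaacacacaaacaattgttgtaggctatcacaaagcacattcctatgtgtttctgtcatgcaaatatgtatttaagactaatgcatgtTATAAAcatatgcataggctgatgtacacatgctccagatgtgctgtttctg
Col5a1: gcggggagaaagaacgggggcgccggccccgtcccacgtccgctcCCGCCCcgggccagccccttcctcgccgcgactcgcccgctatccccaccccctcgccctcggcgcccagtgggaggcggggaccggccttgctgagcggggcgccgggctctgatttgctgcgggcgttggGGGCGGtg
Col11a1: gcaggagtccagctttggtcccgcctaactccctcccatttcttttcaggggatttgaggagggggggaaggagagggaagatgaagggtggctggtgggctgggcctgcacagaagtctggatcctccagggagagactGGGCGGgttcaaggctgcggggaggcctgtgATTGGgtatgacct

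The search covered all 250 bases before that start. The matches at 36 bases (CAGACA, Col5a1), 41 bases (GGGCGG, Col5a3) and 19 bases (GGGCGG, Col11a1) lie inside the gene by its outermost start. CCAAT was found in Col1a2, 109 bases before the start, in Col5a3 and, on the opposite strand, in Col11a1, 79 bases before it. TATAAA was found in Col3a1 alone of the 5, 117 bases before the start. GGGCGG occurred 2 times each in Col1a2, Col5a1, Col5a3 and Col11a1 and not in Col3a1. CAGACA occurred once in Col1a2, 2 times in Col3a1 and once in Col5a1. Of 32851 promoters of this length, 33.8% held CCAAT, 12.4% TATAAA, 32.7% GGGCGG and 17.1% CAGACA, so single matches are common. The Smad letters were found in Col1a2 and Col3a1, which both fell with culture. They were also in Col5a1, which was lower with culture in young cells and higher in old cells. They were found neither in Col5a3, lower with culture in young cells, nor in Col11a1, higher at both ages. The Sp1 and NF-Y letters were found in Col1a2 and not in Col3a1, and the letters TATAAA in Col3a1 and not in Col1a2. Whether any match acts in its promoter was not tested.

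The first comparison asked how culture changed the type I and type III genes. Col1a1, the gene of the main chain of type I collagen, read 12.59, 12.61, 12.62 and 12.49 in young in vivo and 12.17, 12.24, 12.20 and 12.19 in young cultured cells. In old cells it read 12.39, 12.48, 12.46 and 12.52 in vivo and 12.25, 12.15, 12.23 and 12.22 in culture. Every cultured array thus lay below every in vivo array of either age. Cultured cells were lower by a log2 change of -0.38 ± 0.07 (SE, 1.30-fold) in young cells, with an adjusted p of 8.09e-05 in limma, and by -0.25 ± 0.07 (1.19-fold, adjusted p = 0.0033) in old cells. Adjusted p-values throughout are Benjamini-Hochberg values over the 14819 genes tested in the same comparison, with 4 arrays in each group.

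Col1a2, the gene of the second chain of type I collagen, read 8.77, 8.55, 8.79 and 8.88 in young in vivo and 7.40, 7.32, 7.06 and 6.80 in young cultured cells. In old cells it read 7.84, 8.01, 8.38 and 8.22 in vivo and 7.33, 7.24, 7.15 and 6.87 in culture. The in vivo and cultured arrays did not overlap at either age. It fell 3.04-fold in young cells (log2 change -1.60 ± 0.14, adjusted p = 4.37e-08) and 1.95-fold in old cells (-0.96 ± 0.14, adjusted p = 1.98e-05).

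Col3a1, the gene of the only chain of type III collagen, read 12.44, 12.49, 12.50 and 12.39 in young in vivo and 12.01, 11.88, 11.87 and 11.85 in young cultured cells. Old cells read 12.29, 12.42, 12.21 and 12.40 in vivo and 11.97, 12.00, 11.79 and 11.89 in culture. All 8 cultured arrays lay below all 8 in vivo arrays. The log2 changes were -0.55 ± 0.08 in young (adjusted p = 7.33e-06) and -0.42 ± 0.08 in old cells (adjusted p = 1.59e-04).

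**Figure D1:**
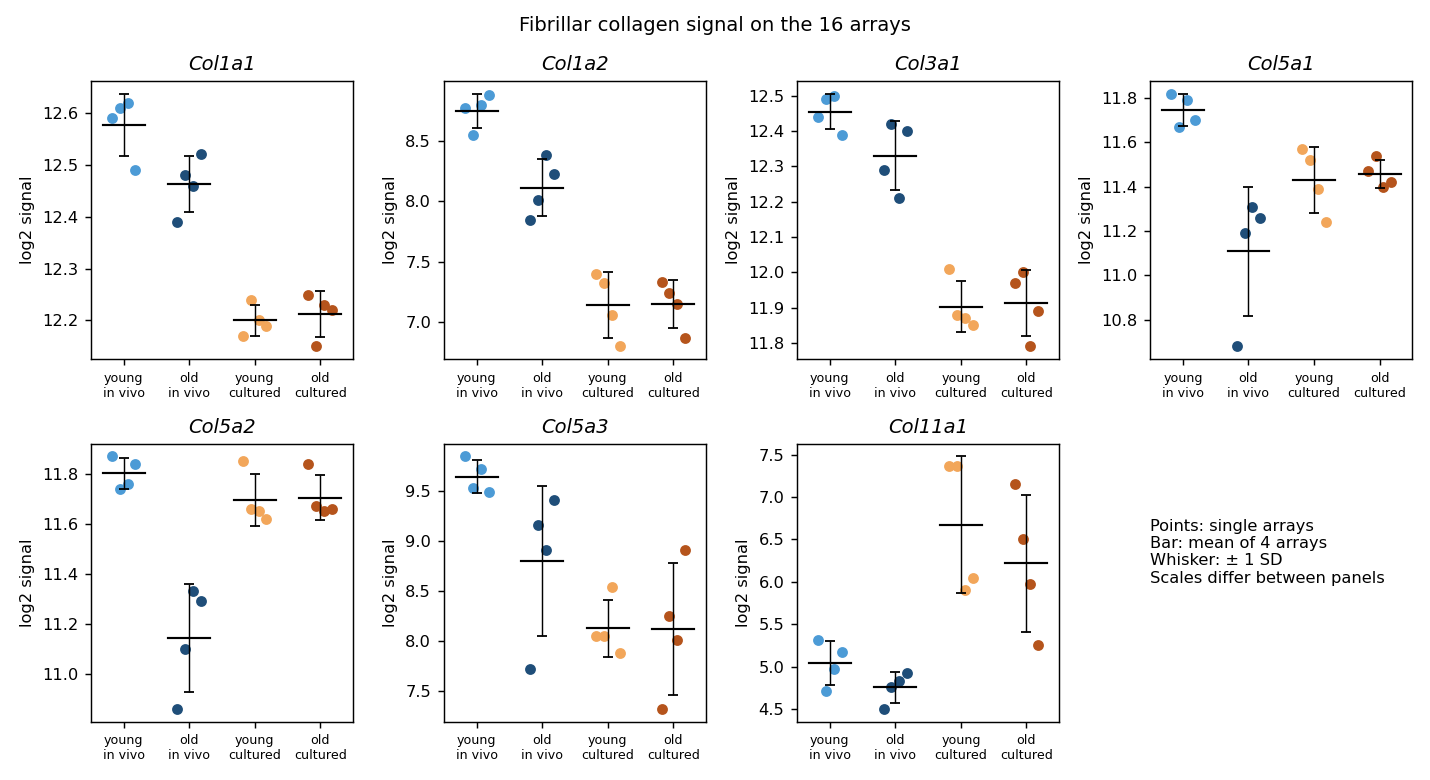
Log2 signal (y axis) of the 7 genes on the 16 arrays by group (x axis), with the mean of 4 arrays as a bar and 1 SD as whiskers, on a scale of its own for each gene. Col1a1, Col1a2 and Col3a1 are lower in both cultured groups, Col5a1 and Col5a2 are lowest in old in vivo cells (means 11.1 and 11.1), and Col11a1 is higher in both cultured groups.

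Of the type V genes, only Col5a2 passed the test for a culture change that differed between the ages (interaction adjusted p = 0.04 in limma). Col5a1 (adjusted p = 0.0869) and Col5a3 (adjusted p = 0.487) did not pass it. Col5a1 read 11.82, 11.67, 11.79 and 11.70 in young in vivo and 11.57, 11.52, 11.39 and 11.24 in young cultured cells. In old cells it read 10.68, 11.19, 11.31 and 11.26 in vivo and 11.47, 11.54, 11.40 and 11.42 in culture. The young in vivo arrays were the highest of the 16, the old in vivo arrays had the lowest mean, and neither culture comparison had overlapping groups. Col5a1 was lower with culture in young cells (-0.31 ± 0.12, adjusted p = 0.0255) and higher with culture in old cells (0.35 ± 0.12, adjusted p = 0.0176). Both calls were weak. The first was lost without young in vivo replicate 1 (adjusted p = 0.0568) or 3 (0.0533) and without young cultured replicate 3 (0.0533) or 4 (0.0857). The second was lost without old in vivo replicate 1 (0.20 ± 0.09, adjusted p = 0.0582), with 75th percentile scaling (0.19 ± 0.12, adjusted p = 0.142) and with cyclic loess (0.10 ± 0.10, adjusted p = 0.439).

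Col5a2, the gene of the partner chain of Col5a1 in type V trimers, read 11.87, 11.74, 11.76 and 11.84 in young in vivo and 11.85, 11.66, 11.65 and 11.62 in young cultured cells. In old cells it read 10.86, 11.10, 11.33 and 11.29 in vivo and 11.84, 11.67, 11.65 and 11.66 in culture. The old in vivo arrays stood below the other 12 arrays. It was 1.47-fold higher with culture in old cells (0.56 ± 0.10, adjusted p = 1.11e-04). In young cells the difference was -0.11 ± 0.10 (adjusted p = 0.332), though with 75th percentile scaling it was -0.34 ± 0.09 (adjusted p = 0.00298) and with cyclic loess -0.43 ± 0.08 (adjusted p = 2.03e-04).

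Col5a3, the gene of the least widespread type V chain, read 9.85, 9.53, 9.72 and 9.49 in young in vivo and 8.05, 8.05, 8.54 and 7.88 in young cultured cells. In old cells it read 7.72, 9.16, 8.91 and 9.41 in vivo and 7.32, 8.25, 8.01 and 8.91 in culture, with overlap. It fell 2.86-fold with culture in young cells (-1.52 ± 0.32, adjusted p = 5.67e-04). In old cells the difference was -0.68 ± 0.32 (adjusted p = 0.0771). It passed without old in vivo replicate 1 (-1.04 ± 0.26, adjusted p = 0.00312) and without old cultured replicate 4 (-0.94 ± 0.31, adjusted p = 0.0173). Without old cultured replicate 1 it shrank to -0.41 ± 0.31 (adjusted p = 0.263), and without any of the remaining 5 old arrays it did not pass. It also passed with array weights (adjusted p = 0.035), with 75th percentile scaling (0.0281) and with cyclic loess (0.019).

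Col11a1, the gene of a chain of type XI collagen, read 5.32, 4.71, 4.97 and 5.17 in young in vivo and 7.37, 7.37, 5.90 and 6.05 in young cultured cells. Old cells read 4.50, 4.76, 4.83 and 4.93 in vivo and 7.15, 6.50, 5.97 and 5.25 in culture. Cultured arrays lay above in vivo arrays at both ages and were far more spread (SD 0.81 in each cultured group, 0.26 and 0.18 in young and old in vivo cells). It rose 3.10-fold in young (1.63 ± 0.36, adjusted p = 8.48e-04) and 2.76-fold in old cells (1.46 ± 0.36, adjusted p = 0.00229). Its in vivo values were dim, near the array medians of 4.74 to 4.92, so the size of the rise is uncertain. The mice were taken on more than 1 day, which the labels do not assign to samples, so values by day are not analysed here.

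In all, 1 member rose and 5 fell with culture in young cells, and 3 rose and 3 fell in old cells. Calls were common among all genes. In young cells 71.2% of 14819 genes passed, 32.6% as higher and 38.6% as lower. In old cells 62.8% passed, 30.2% as higher and 32.5% as lower. Groups that did not overlap were somewhat less common. In young cells 1 member was higher and 5 were lower without overlap, beside 30.6% and 33.0% of all genes (63.6% in either direction). In old cells 3 were higher and 3 lower, beside 27.6% and 30.5% (58.0%). The median log2 change was -0.38 over the members and -0.12 over all genes tested in young cells, and -0.25 and -0.10 in old cells. A member that passed with culture was thus no exception among all genes. The culture comparison of each age shares its in vivo arrays with the comparison of ages in vivo.

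**Figure D2:**
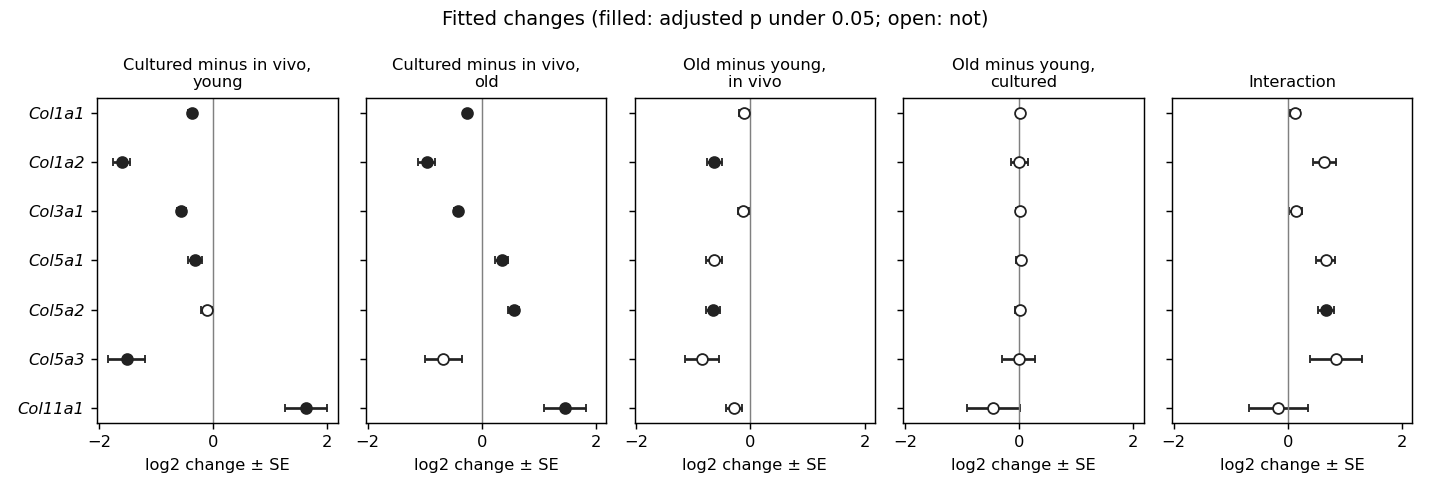
Fitted log2 changes (x axis, with SE) of the 7 genes in the 5 comparisons, filled where the adjusted p was under 0.05. Changes with age stand left of 0 for all 7 genes in vivo, and within 0.03 of 0 in culture for all but Col11a1 (-0.46, SE 0.46).

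The second comparison asked whether old and young cells differed in vivo. All 7 fitted changes were negative, and 2 passed: Col5a2 and Col1a2. Col5a2 was 1.58-fold lower in old cells, at 11.14 ± 0.21 (SD, n = 4) against 11.80 ± 0.06 in young cells (log2 change -0.66 ± 0.12 SE, adjusted p = 0.0285). Col1a2 was 1.55-fold lower, at 8.11 ± 0.24 against 8.75 ± 0.14 (-0.64 ± 0.13, adjusted p = 0.0493). Only 1.35% of all genes passed here, and 0.439% passed as lower.

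Col5a1 had a change of nearly the same size, 11.11 ± 0.29 in old and 11.74 ± 0.07 in young cells (-0.64 ± 0.14), with an adjusted p of 0.0576. Col5a3 was at 8.80 ± 0.75 in old and 9.65 ± 0.17 in young cells (-0.85 ± 0.30, adjusted p = 0.203). The values of Col1a2, Col5a1, Col5a2 and Col5a3 did not overlap between the ages, which held for 2.73% of all genes in the lower direction, 5.80% in the higher and 8.53% in either. Col1a1 (-0.11 ± 0.09, adjusted p = 0.599), Col3a1 (-0.12 ± 0.09, adjusted p = 0.585) and Col11a1 (-0.29 ± 0.15, adjusted p = 0.4) overlapped. The median was -0.64 over the members and 0.01 over all genes.

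Old in vivo replicate 1, the array with the high keratinocyte level, was the lowest for Col1a1, Col1a2, Col5a1, Col5a2, Col5a3 and Col11a1. Without it the change of Col5a2 was -0.56 ± 0.11 (adjusted p = 0.0298), that of Col5a1 was -0.49 ± 0.10 and passed (adjusted p = 0.0392), and that of Col1a2 was -0.54 ± 0.13 and did not (adjusted p = 0.0595). The change of Col5a3 was then -0.49. The calls rest on few arrays. That of Col1a2 was kept only without old in vivo replicate 3 (adjusted p = 0.0469), and was lost without any other in vivo array, with adjusted p between 0.0595 and 0.133. That of Col5a2 was lost without young in vivo replicate 1 (adjusted p = 0.0617), 2 (0.0762), 3 (0.0698) or 4 (0.0755) and without old in vivo replicate 2 (0.0862).

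Col5a1 passed with an adjusted p of 0.0317 with 75th percentile scaling, 0.0221 with cyclic loess, 0.0179 with an intensity trend and 0.0404 with array weights. It did not pass without the filter on low values (adjusted p = 0.0723). Over the main fits, every alternative and probe set, the 35 changes of Col5a1 and Col5a2 with age in vivo were all negative, from -1.34 to -0.49. These are not independent results, as all come from the same in vivo arrays. Leaving out 1 array could not turn the sign, because the values of the ages did not overlap.

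Markers of other cells and RNA quality were measured beside these values. Of the keratinocyte markers 0 of 7 passed with age in vivo, and their summed log2 level was 8.48 to 8.88 in young and 8.64 to 10.3 in old cells. Endothelial markers (0 of 7) were at 7.92 to 8.36 in young and 8.20 to 9.31 in old cells, and fibroblast markers (0 of 8) at 14.2 to 14.3 and 14.2 to 14.4. Of the pericyte and smooth muscle markers 1 of 6, Kcnj8, was higher (1.06 ± 0.22, adjusted p = 0.0494 in limma). The others ran from -0.245 (Rgs5) to 0.125 (Mcam) and did not pass. The sums of this list, in which Kcnj8 was the brightest gene in vivo, did not overlap (8.11 to 8.41 in young and 8.42 to 9.19 in old cells). Macrophage markers had 1 of 6 lower (8.83 to 9.64 and 8.83 to 9.26). The 3' minus 5' control signal of Gapdh, a measure of RNA integrity, was -0.12 to -0.04 in young and -0.17 to -0.13 in old in vivo cells, with no overlap. That of beta-actin was -0.49 to -0.32 and -0.56 to -0.31. The part of these in the age result was not tested.

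The third comparison asked about age after culture. No member and no gene of the array passed (0 of 14819, 0% in limma, with 533 genes at an unadjusted p under 0.05). Col5a2 was at 11.70 ± 0.10 (SD, n = 4) in young and 11.70 ± 0.09 in old cultured cells, a difference of 0.01 ± 0.08 (SE). The difference was 0.03 ± 0.08 for Col5a1, 0.00 ± 0.14 for Col1a2, 0.01 ± 0.05 for Col1a1 and 0.01 ± 0.07 for Col3a1. For Col5a3 it was -0.01 ± 0.29 and for Col11a1 -0.46 ± 0.46, so for these a difference of the size seen in vivo was not detectable. As no gene passed, whether such a difference could have passed for the other members was not tested. All 7 genes overlapped between the ages, where 2.06% of all genes did not (1.19% higher and 0.864% lower in old cells).

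The age differences in vivo and in culture were then set against each other with the interaction term. It was 0.67 ± 0.14 for Col5a2 (adjusted p = 0.04), which means that the age difference was that much higher in culture than in vivo, and equally that its change with culture was that much higher in old than in young cells. Of all genes 0.587% passed, and 0.196% in this direction. Col5a1 had an interaction of 0.66 ± 0.17 (adjusted p = 0.0869), which passed without old in vivo replicate 1 (0.52 ± 0.12, adjusted p = 0.0467). The interaction of Col5a2 without that array was 0.57 ± 0.12 (adjusted p = 0.0305). It was lost without young in vivo replicate 2 (adjusted p = 0.0584), 3 (0.0538) or 4 (0.0704), without old in vivo replicate 2 (0.069), without young cultured replicate 2 (0.0884), 3 (0.0742) or 4 (0.104) and without old cultured replicate 1 (0.083), 2 (0.0726), 3 (0.0631) or 4 (0.07). Col1a2 (0.64 ± 0.20, adjusted p = 0.191), Col5a3 (0.84 ± 0.46, adjusted p = 0.487, and 0.48 ± 0.36 without old in vivo replicate 1), Col1a1 (0.13 ± 0.09), Col3a1 (0.14 ± 0.11) and Col11a1 (-0.17 ± 0.51) did not pass.

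The other probe sets that the annotation used here lists for these genes served as a check. It lists 1 each for Col1a1 and Col1a2, so these have no such check. Col5a1 had a pair of further probe sets, both lower in old in vivo cells. In the first, young cells stood at 10.36 ± 0.22 (SD, n = 4) in vivo and 9.44 ± 0.23 in culture, and old cells at 9.03 ± 0.44 and 9.50 ± 0.16. Its age change in vivo was -1.34 ± 0.20 (SE, adjusted p = 0.0142) and its interaction 1.40 ± 0.25 (adjusted p = 0.0151), and both passed. The second had an age change of -1.02 ± 0.23 (adjusted p = 0.0669) and an interaction of 1.03 ± 0.27 (adjusted p = 0.102). All 3 Col5a1 probe sets were lower with culture in young and higher with culture in old cells, and each of these 6 changes passed. The second probe set of Col5a2 had an age change in vivo of -1.20 ± 0.26 (adjusted p = 0.0594) and rose with culture in old cells by 1.38 ± 0.27 (adjusted p = 2.55e-04). Its interaction was 1.23 ± 0.38 and did not pass (adjusted p = 0.175), and with the mean over both probe sets the interaction of Col5a2 was 0.95 ± 0.24 and did not pass either (adjusted p = 0.0894).

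The probe sets of Col3a1 differed widely in size. In the second, young cells stood at 9.55 ± 0.28 in vivo and 6.25 ± 0.55 in culture, and old cells at 7.38 ± 0.98 and 6.40 ± 0.71. Its age change in vivo was -2.18 ± 0.39 (adjusted p = 0.0311), against -0.12 ± 0.09 for the probe set near the top of the scale. Its culture change was -3.30 ± 0.41 in young (adjusted p = 2.4e-06) and -0.97 ± 0.41 in old cells (adjusted p = 0.0499). The direction was thus alike and the size was not, and with the mean over the probe sets Col3a1 passed with age in vivo (-1.15 ± 0.21, adjusted p = 0.0344). The second probe set of Col5a3 had a culture change of -0.38 ± 0.31 in young cells (adjusted p = 0.277), and the second of Col11a1 was above the filter on 2 of 16 arrays and was not tested.

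**Figure D3:**
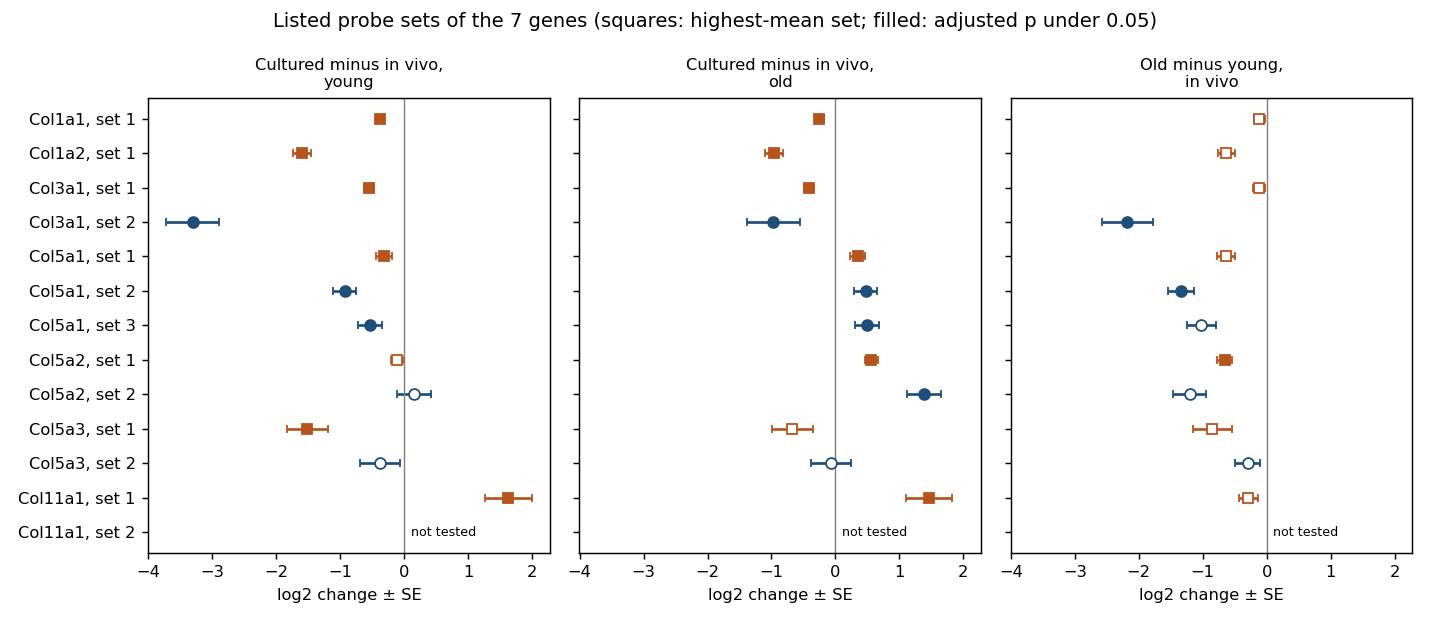
Log2 changes (x axis, with SE) of the 13 probe sets listed for the 7 genes, with squares for the probe set used and filled symbols for an adjusted p under 0.05 in a fit of all probe sets with 1 symbol. The second Col3a1 set moves by -3.30, -0.97 and -2.18 where the first moves by -0.55, -0.42 and -0.12, and Col1a2 is open for age in vivo because its adjusted p in this fit is 0.0535.

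Differences between 2 genes on the same array cancel a shift of the whole array. Those against Col1a1 are open to its signal near the top of the scale, where a change may be understated, and are given as a description only. In vivo, Col5a1 minus Col1a1 was -0.83 ± 0.08 in young against -1.35 ± 0.25 in old cells (SD, n = 4), and -0.77 ± 0.15 and -0.76 ± 0.10 in culture. The old in vivo arrays (-1.71 to -1.15) lay below all others (-0.95 to -0.60). Col5a2 minus Col5a1 was 0.06 ± 0.07 and 0.04 ± 0.11 in young and old in vivo cells. In culture it was 0.27 ± 0.10 and 0.25 ± 0.10, higher than in vivo in mean but with a slight overlap (0.18 in the highest in vivo and 0.13 in the lowest cultured array). Col3a1 minus Col1a1 was -0.12 ± 0.02 and -0.13 ± 0.08 in vivo and -0.30 ± 0.09 and -0.30 ± 0.12 in culture. Col1a2 minus Col1a1 went from -3.83 ± 0.18 in young and -4.35 ± 0.21 in old in vivo cells to -5.05 ± 0.27 and -5.07 ± 0.20 in culture. Col5a3 minus Col5a1 was -2.10 ± 0.10 and -2.31 ± 0.49 in vivo and -3.30 ± 0.31 and -3.33 ± 0.67 in culture. Col11a1 minus Col5a1 moved the other way, from -6.70 ± 0.22 and -6.36 ± 0.13 to -4.76 ± 0.68 and -5.24 ± 0.77.

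**Figure D4:**
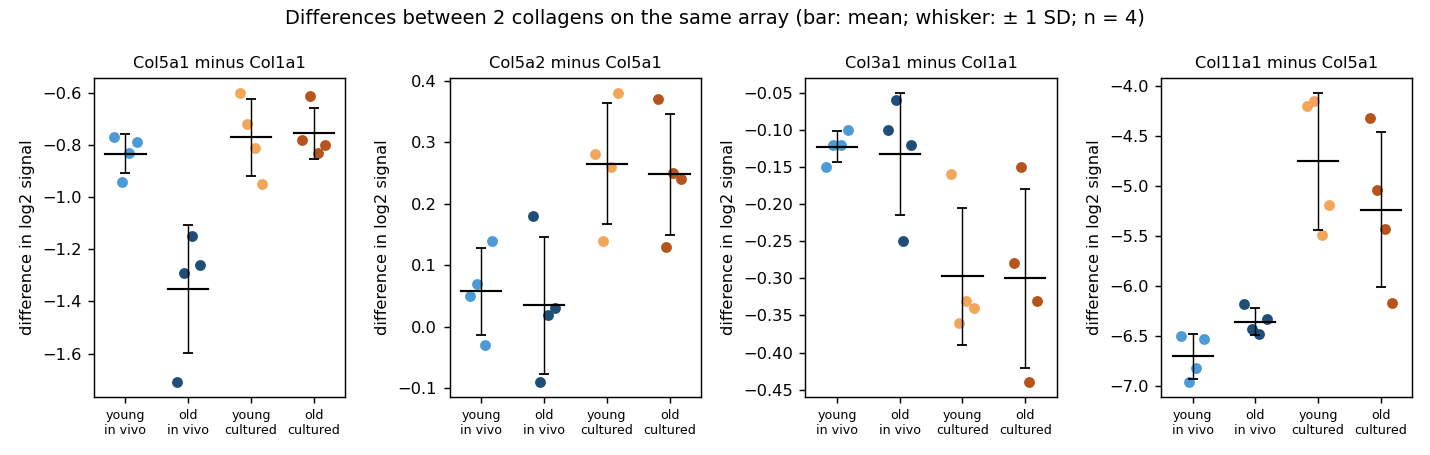
Difference in log2 signal (y axis) between 2 collagens on the same array by group (x axis), with mean and 1 SD. Col5a1 minus Col1a1 is lowest in old in vivo cells (-1.71 to -1.15), and Col11a1 minus Col5a1 is higher in culture.

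The likeness of profiles was measured as the root mean square difference over the 16 arrays between log2 values centred on each gene's mean. Among the members Col1a1 and Col3a1 (0.114) and Col5a1 and Col5a2 (0.134) were the nearest pairs, and Col5a3 and Col11a1 (1.56) the farthest. Among all 14819 genes the genes nearest to Col5a2 were Rap2b and Nnmt (0.127 each), followed by Col5a1. The genes nearest to Col5a1 were Kdelr3 (0.125), Yipf5 (0.129) and Sec22b (0.130), where the median gene stood at 0.395. Nearest to Col1a1 were Galr2, Anxa5 and Apol7b, to Col3a1 Safb2, Saxo1 and Zc3h11a, to Col1a2 Il1rl2, Arhgap32 and Fkbp7, to Col5a3 Adcy7, Cryzl2 and Cercam, and to Col11a1 Dnm3os, Pde8b and Pole2.

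The genes that fold, process and bind fibrillar collagens were described from fixed lists. Their counts with culture stand beside 32.6% of all genes called higher and 38.6% lower in young cells. In old cells the shares were 30.2% and 32.5%. Among the other fibrillar collagens, Col2a1, the cartilage collagen, passed as higher with culture in old cells (1.72 ± 0.69, adjusted p = 0.0398 in limma). It was at 0.22 ± 0.69 in young cells, and its interaction did not pass (adjusted p = 0.575). The median SE over all genes was 0.118. The summed chondrocyte and osteoblast markers, which include Col2a1, read 10.45 on old cultured replicate 1 and 9.31, 8.86 and 8.67 on the others. Whether the rise holds without that array was not tested. Col11a2 fell slightly in young cells (-0.21 ± 0.09, adjusted p = 0.0362). Col27a1 did not pass and Col24a1 was below the filter.

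Of 19 tested genes for folding, modification and export, 6 rose and 8 fell with culture in young and 8 rose and 6 fell in old cells, with medians of -0.20 and 0.15. Plod2, which hydroxylates lysines of the collagen ends, rose by 3.05 ± 0.18 and 3.67 ± 0.18. P4ha3, a subunit of prolyl 4-hydroxylase, rose by 3.25 ± 0.20 and 3.26 ± 0.20. P3h3, of the prolyl 3-hydroxylase family, fell by 1.36 ± 0.13 and 0.91 ± 0.13. The collagen chaperone Serpinh1 was lower in young cultured cells (-0.32 ± 0.11, adjusted p = 0.0181) and at 0.06 ± 0.11 in old cells (adjusted p = 0.624).

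Of 11 genes for propeptide cleavage and crosslinking, 3 rose and 6 fell in young and 3 rose and 5 fell in old cells (medians -0.54 and -0.14). The lysyl oxidases Loxl3 (3.95 ± 0.17 and 3.67 ± 0.17) and Lox (1.38 ± 0.20 and 2.40 ± 0.20) rose. The protease Bmp1, which removes the C-terminal propeptide, fell (-1.35 ± 0.12 and -1.39 ± 0.12), as did its enhancers Pcolce (-1.51 ± 0.16 and -1.20 ± 0.16) and Pcolce2 (-2.42 ± 0.14 and -2.75 ± 0.14).

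Of 16 fibril surface and assembly partners, 1 rose and 10 fell in young and 2 rose and 9 fell in old cells (medians -1.48 and -1.59). Lum, a proteoglycan that limits fibril width, fell by 4.45 ± 0.16 and 4.82 ± 0.16, and Col14a1, a collagen on the fibril surface, by 4.32 ± 0.24 and 2.73 ± 0.24. Col12a1, of the same family as Col14a1, rose by 1.32 ± 0.22 and 1.16 ± 0.22. Of 11 genes for breakdown and uptake, 4 rose and 6 fell in young and 4 rose and 5 fell in old cells (medians -0.48 and -0.12). Timp1, an inhibitor of metalloproteinases, rose by 3.37 ± 0.16 and 3.81 ± 0.16. The gelatinase Mmp2 (-2.41 ± 0.09 and -2.30 ± 0.09) and the collagen-degrading cathepsin Ctsk (-1.80 ± 0.09 and -1.51 ± 0.09) fell.

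Of 7 collagen receptors, 3 rose and 3 fell in young and 3 rose and 2 fell in old cells (medians -0.17 and -0.03). Ddr1 rose by 1.91 ± 0.16 and 1.41 ± 0.16, and Ddr2, also a kinase that binds collagen, fell by 0.41 ± 0.08 and 0.51 ± 0.08. The integrin chain Itgb1 rose by 0.83 ± 0.09 and 0.96 ± 0.09. Of 25 genes of transcription and signalling, 11 rose and 8 fell in young and 9 rose and 8 fell in old cells (medians 0.10 and -0.05). Ccn2, a target of TGF-beta, rose by 5.30 ± 0.20 and 5.01 ± 0.20 and the ligand Tgfb1 by 2.59 ± 0.21 and 1.81 ± 0.21. The receptor Tgfbr2 fell by 2.87 ± 0.12 and 3.15 ± 0.12, and Creb3l1, a transcription factor needed for collagen I in bone, (-1.66 ± 0.17 and -1.57 ± 0.17).

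With age in vivo these lists held 2 calls, where 1.35% of all genes passed. Col14a1 was lower in old cells (8.34 ± 0.57 against 9.91 ± 0.31, SD, n = 4, -1.56 ± 0.26 SE, adjusted p = 0.0216). Ddr1 was higher (0.56 ± 0.10, adjusted p = 0.0359). None of the 19 folding genes, 11 cleavage and crosslinking genes, 11 breakdown genes and 25 transcription genes passed in limma. Their medians were -0.15, -0.12, -0.13 and 0.10, beside 0.01 for all genes. Plod2 was at -0.64 ± 0.21 (adjusted p = 0.176) and Lox at -0.93 ± 0.23 (adjusted p = 0.08). The interaction was called for 1 list gene, Col14a1 (1.59 ± 0.34, adjusted p = 0.0461), and no list gene passed with age in culture.

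**Figure D5:**
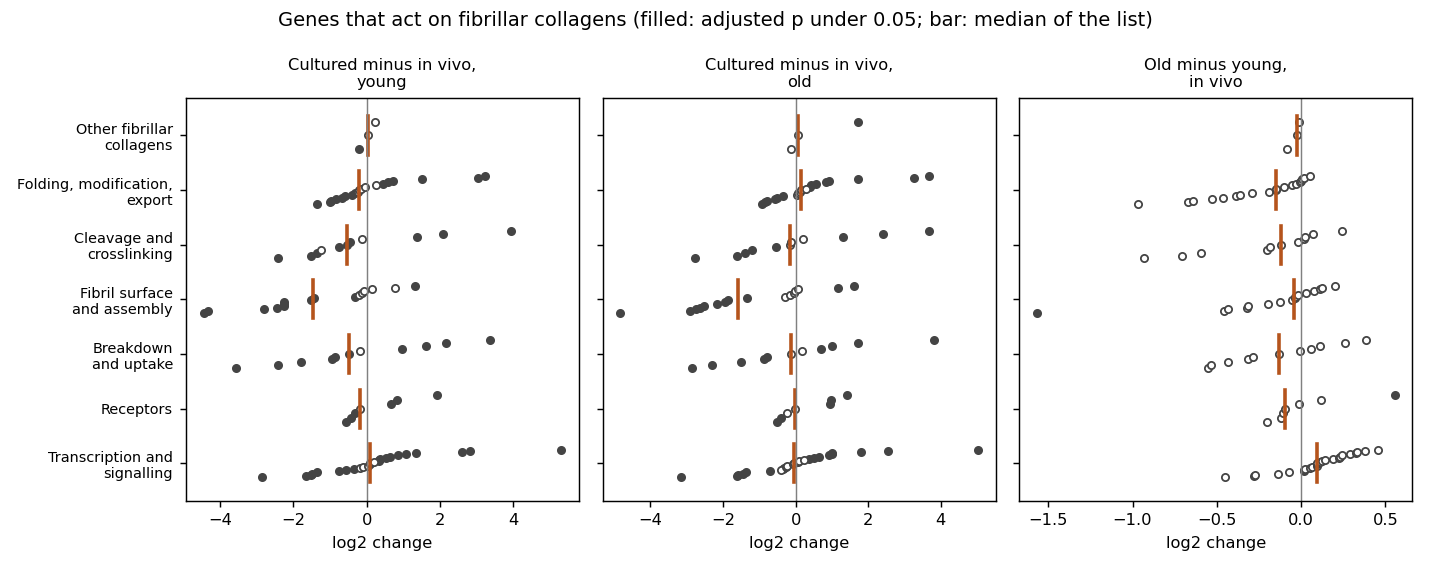
Log2 changes (x axis) of the tested genes of 7 lists that act on fibrillar collagens, filled where the adjusted p was under 0.05, with the median of each list as a bar; the scale for age in vivo is narrower. Fibril surface genes have the lowest medians with culture (-1.48 and -1.59), and in vivo 2 genes passed with age, Col14a1 and Ddr1.

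Markers of other cells were described with culture as well. Of all genes 38.6% were called lower with culture in young and 32.5% in old cells, and 32.6% and 30.2% higher. A few calls in a short list are thus common. Macrophage markers fell for 6 of 6 tested genes in young and 5 of 6 in old cells (summed log2 level 8.83 to 9.64 and 8.83 to 9.26 in vivo, 7.89 to 8.21 and 7.89 to 8.04 in culture). Keratinocyte markers fell for 3 and 4 of 7, endothelial for 3 and 3 of 7 and melanocyte for 4 and 5 of 5. T cell markers fell for 0 and 2 of 4, and Schwann cell markers for 1 and 1 of 2. Fibroblast markers had 5 of 8 lower and 1 higher at both ages, with sums of 14.2 to 14.4 in vivo and 13.2 to 13.45 in culture. Pericyte and smooth muscle markers had 2 of 6 higher and 3 and 2 lower. The chondrocyte and osteoblast list, which holds Col2a1, had 1 of 9 higher and 3 lower in young and 3 higher and 3 lower in old cells, with sums of 7.88 to 8.20 and 7.96 to 8.01 in vivo and 8.08 to 8.99 and 8.67 to 10.45 in culture. Of that list Sox9, a regulator of cartilage collagens, was at 5.0 and 4.77 in young and old in vivo cells and at 7.23 and 7.69 in culture, and Acan, the cartilage aggrecan, at 4.37, 4.41, 4.12 and 4.03. No adipocyte marker passed the filter. The 3' minus 5' control signal of beta-actin lay between -0.56 and -0.31 in vivo and between 0.03 and 0.18 in culture. The part of these in the culture changes of the collagens was not tested.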

How the data were processed

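The deposited table holds 45141 probe sets on 16 Affymetrix arrays. Per the submitters' processing notes, RMA and affy were used (no version named). The deposited values were read as log2 signals from their range. Joint normalisation of the arrays is not stated. RMA equalises arrays, so a change is one relative to the rest of the array.

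Probe sets with 1 symbol (28898; 551 had several and 15692 none) gave 17097 genes, each by its probe set of highest mean. A gene was tested if 4 of 16 arrays lay above 3.87, the 25th percentile of all values (14819 genes). Tests used limma 3.58.1 (lmFit and eBayes on group means, R 4.3.3), two-sided, with Benjamini-Hochberg adjustment over all genes and a threshold of 0.05. Culture and interaction used all 16 arrays. Each age comparison used only the 8 arrays of its condition, so that the spread is taken within the condition. The median residual SD was 0.185 in vivo and 0.129 in culture. The fits were tested on simulated data with 200 changed genes. For age in vivo, 28.3% of simulated log2 changes of 0.5 and 82.3% of changes of 1 were recovered, with 4.34% false calls. For the interaction, 24% and 76.3% were recovered, with 6.81% false calls. Many changes of about 0.5 would thus be missed.

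With 6 residual degrees of freedom per age comparison, the number of arrays limits the precision. Replicates were separate samples of different mice. The labels do not tie samples to mice or collection days, so no block was fitted. The members and lists were chosen with earlier results of these data known. All members are named. From the lists, genes were named among the called ones with the 3 largest rises or falls per list and comparison, with the 3 genes nearest to each member by likeness. Serpinh1, Col27a1 and Col24a1, the markers named singly, and the age values of Plod2 and Lox were added after values were seen.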

Additional observations from a re-analysis of the deposited data

Results flagged for a closer look

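In 28 groups of 4 values, 1 array stood far from the other three by Dixon's test, where chance gives about 5%: the highest Col5a2 value in old cultured cells, 11.84, whose nearest neighbour was 11.67. The age difference of Col5a2 differed between culture and in vivo (interaction 0.67 ± 0.14, limma adjusted p = 0.04). It also did for 1 further probe set of Col5a1 (1.40 ± 0.25, adjusted p = 0.0151) and for Col14a1 (1.59 ± 0.34, adjusted p = 0.0461). For the main probe set of Col5a1, every young cultured array lay below every young in vivo array and every old cultured array above every old in vivo array, with an interaction of 0.66 ± 0.17 that did not pass (adjusted p = 0.0869).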

How the results depend on the processing

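The changes of Col1a1, Col1a2, Col3a1 and Col11a1 with culture kept direction and call in both ages in all 122 alternatives. With age in vivo 200 genes passed, 392 with array weights, 900 with all 16 arrays in the fit (which pools the unequal spreads in vivo and in culture), and 60 to 306 with 1 array left out; the 2 members called became 1 without the filter, 4 with the mean over probe sets, and 0 to 2 with 1 array left out. For the interaction 87 genes passed, 185 with array weights and 44 to 200 with 1 array left out; the 1 member called became 2 after scaling to the 75th percentile, cyclic loess or an intensity trend, and 0 to 2 with 1 array left out. The sign turned for Col5a2 with culture in young cells (0.021 with the mean over probe sets, 0.15 with its second probe set) and for small age differences in culture. Those of Col5a3 were 0.002 after scaling, 0.004 with the mean over probe sets, 0.065 with array weights and 0.015 with the second probe set, and those of Col1a2 -0.005 after cyclic loess and -0.001 with array weights. With 1 array left out they ran from -0.11 to 0.10 (Col1a2), -0.019 to 0.051 (Col3a1), -0.036 to 0.074 (Col5a1), -0.035 to 0.062 (Col5a2) and -0.27 to 0.26 (Col5a3), and the interaction of Col11a1 from -0.48 to 0.15. The cause was not tested. Scaling to the 75th percentile moved the median gene with culture from -0.12 to -0.35 (young) and from -0.10 to -0.25 (old). It moved the share of higher calls from 45.8% to 31.4%, from 48.1% to 34.2%, from 67.5% to 43.9% for age in vivo (51.1% after cyclic loess) and from 33.3% to 55.9% for the interaction (45.2%). No paired analysis was possible because replicate numbers here only name samples, and no label ties a fresh to a cultured sample of its mouse.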
